A study of Mus musculus with 6 samples.

Results

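Genes of vesicle transport and endosomal sorting were examined for pull-down with an antibody that binds N4-acetylcytidine (ac4C), a modified RNA base that carries an acetyl group. The genes were taken by name from 1 list of pull-down summits: the COPI and Sec23/24-type coat genes and the other Sec genes, and the p24 (Tmed), Arf, TRAPP, Rab, syntaxin, VAMP, AP-1 to AP-4 adaptor, sorting nexin, Vps and Chmp genes. Rab5c was left out by the rule. Of 1876 summits on 1485 genes in the list, 63 summits on 44 genes belonged to these families. A RefSeq gene table held 257 protein-coding genes with such names, so 213 family genes had no listed summit.

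The cells were 32D, a wild-type (WT) mouse bone marrow line grown in RPMI1640 with serum and 10 ng/mL mouse interleukin 3, with no other treatment named in the labels. Poly(A) RNA went into 6 libraries: 2 pulled down with ac4C antibody, 2 with IgG antibody and 2 of input with no antibody, which makes 3 groups. The list names the merged ac4C libraries, so no value belongs to a single library and no replicate error can be given; the depth of the libraries is unknown. The question named in the series title is how the ac4C acetyltransferase Nat10 bears on RNA stability in hematopoietic cells. The labels call the cells lymphoblastocytes. Of 15 myeloid identity genes on a fixed list 5 had a summit, against 6.71% of all protein-coding genes. They were Spi1 at a fold of 53.6, Fcer1g at 44.6, Csf2rb2 at 10.4, Csf2rb at 9.02 and Prtn3 at 4.27. Cebpa, Mpo, Elane, Il3ra, Csf1r, Ptprc, Kit, Cd34, Itgam and Ly6c2 had no listed summit. Of 14 lymphoid and erythroid genes on a second list 0 had one (Clopper-Pearson upper limit 23.2%, which lies above the 6.71%). Genes of those lineages outside that list did have summits, for example the alpha globin gene Hba-a1 at 41.8 and the lymphotoxin gene Ltb at 40.3, chosen after their values were seen.

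Membrane traffic moves proteins between organelles in small coated carriers. Coats (COPII at the endoplasmic reticulum, COPI at the Golgi, clathrin with AP adaptors at the Golgi and endosomes) bend the membrane and select cargo, Arf and Rab GTPases mark membranes and recruit tethers, and SNARE proteins fuse the carrier with its target. Endosomal proteins are then returned by retromer and sorting nexins or sent to lysosomes by the ESCRT complexes, a route that blood cells also use for surface receptors and granules.

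The fold enrichment is that of the authors' peak caller. Each fold was a whole multiple of 0.475 to within 0.00104 of a step, so a constant background of 1.11 fragments applied to every entry. A Poisson tail over that background returned every −log10 p of the authors' deposited table to within 0.000474% of its value. The fold is thus the number of pulled-down fragments over the summit, plus 1, over a constant. It holds no term for input, IgG or transcript abundance. The members' summits rested on 8 to 144 fragments, and each 95% interval below is the exact Poisson interval of that number, which covers counting error only. No transcript sequence was used here, so positions are nt on the transcript as listed and the bases under the summits are not shown.

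Family genes with a listed summit made up 17.1% of the 257 (95% Clopper-Pearson interval 12.7% to 22.3%). Among all 21900 protein-coding genes of the table the share was 6.71%, and among 188 partner genes of the same pathways, such as clathrin, tethers and Rab regulators, it was 14.4% (9.68% to 20.2%). The member share is therefore above that of protein-coding genes at large and close to that of the partner genes, whose interval overlaps it. Expression was not analysed here, and the table's protein-coding genes include many that a myeloid line need not express. The part of expression in these shares was not tested.

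The coat family had the highest share of the 5 main families, with 6 of 19 genes or 31.6% (12.6% to 56.6%). Sorting nexins had 7 of 30 or 23.3% (9.93% to 42.3%). SNAREs, with the Sec22 genes counted by name alone, had 6 of 26 or 23.1% (8.97% to 43.6%). Adaptors had 5 of 22 or 22.7% (7.82% to 45.4%). Rab names had 8 of 68 or 11.8% (5.22% to 21.9%), and without 10 Rab partner genes, of which 0 had a summit, 8 of 58 or 13.8%. The intervals of the 5 families overlap one another. That of the Rab genes also includes the 6.71% of all protein-coding genes, so their share is not apart from the background.

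The smaller families ranged from 0 to 27.3%. The Tmed names, grouped as p24 cargo receptors, had 3 of 11 genes and the Vps names 6 of 35 (17.1%). The Arf GTPases had 1 of 6, the ESCRT-III subunits (Chmp) 1 of 10 and the TRAPP tether 1 of 15. Of the 15 remaining Sec genes, which include the protein translocon (Sec61a1, Sec61b, Sec61g, Sec62, Sec63) and the signal peptidase subunits Sec11a and Sec11c, 0 had a listed summit (Clopper-Pearson upper limit 21.8%). That limit lies above 6.71%, so this share is not apart from the background either. Absence from the list can mean no expression, no ac4C or removal by the authors' filter.

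**Figure D1:**
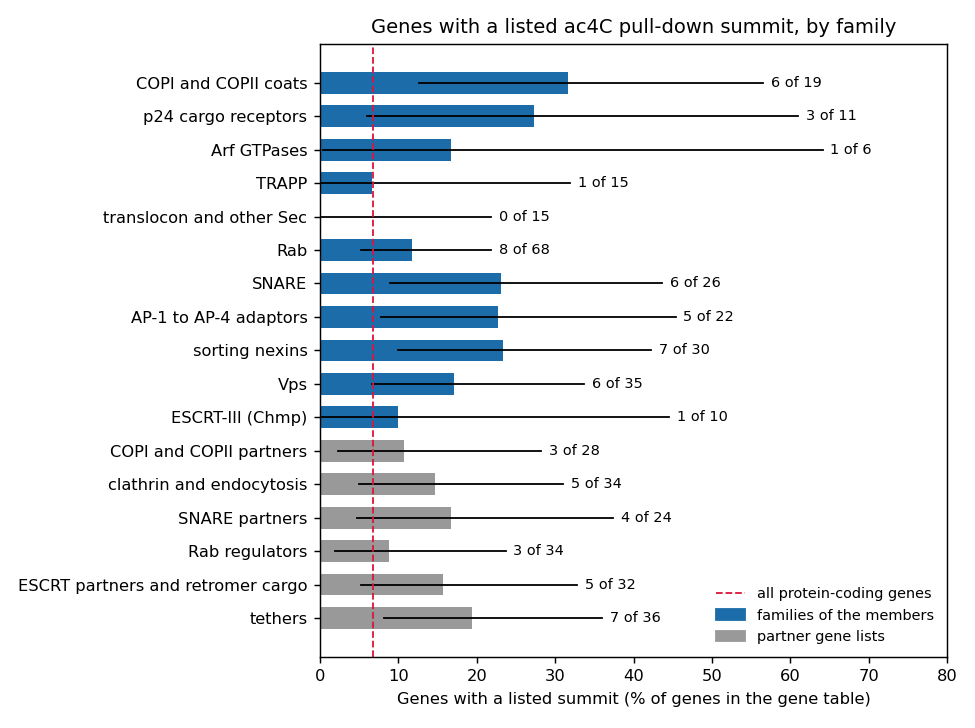
Share of protein-coding genes with a listed summit, in percent of the genes in the gene table, for the families of the members (blue) and for lists of partner genes (grey); lines are 95% Clopper-Pearson intervals and the dashed line marks all protein-coding genes at 6.71%. The coats stand highest with 6 of 19 genes, the translocon and other Sec genes have 0 of 15, and the intervals are wide throughout.

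Within the coats the summits lay mainly on COPI, the coat of Golgi carriers. COPI had 5 of 8 genes by name (62.5%; 24.5% to 91.5%) and COPII 1 of 11 (9.09%; 0.23% to 41.3%), intervals that overlap. Copz1, which encodes the zeta subunit, had the tallest coat summit, with a fold of 42.7 (34.4 to 52.5) at nt 1613 in the 3' untranslated region. Its entry carries the letter e, so the peak held at least 5 summits, of which 1 was listed.

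The beta subunit genes followed. Copb2 had a fold of 28.0 (21.4 to 36.1) at nt 1112 and a lower summit of 6.65 (3.76 to 11.0) at nt 2438, both in coding sequence. Copb1 had 25.2 (18.9 to 32.8) at nt 2250 of its coding sequence. The intervals of Copb1 and Copb2 overlap, that of Copz1 overlaps Copb2 narrowly, and those of Copz1 and Copb1 are apart.

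Copg1, the gamma subunit gene, had 3 summits with coding folds of 10.9 at nt 1984 and 14.7 at nt 2676 and a 3' untranslated fold of 8.54 at nt 3958. Its 3 counting intervals overlap. Cope, the epsilon subunit gene, had 1 summit of 9.49 (5.90 to 14.6) at nt 239 of coding sequence. By the highest fold of a gene it ranked lowest of the listed coat genes. No summit was listed for Copa, for the second copies Copg2 and Copz2, or for the delta subunit gene Arcn1, which was on the partner list.

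Among COPII genes the listed one was Sec13, an outer-cage subunit that also belongs to the nuclear pore, with a fold of 21.4 (15.7 to 28.5) at nt 205 of coding sequence. Its cage partners Sec31a and Sec31b and the inner-coat genes Sec23a, Sec23b and Sec24a to Sec24d had none listed. Over both coats 7 of 9 summits (77.8%; 40.0% to 97.2%) lay in coding sequence, against 48.0% of all summits in the list. The interval includes the share of all summits.

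The listed Tmed genes all had folds above the median of all listed genes, 12.3. Tmed5, Tmed2 and Tmed8 were grouped as p24 by name alone. Their folds were 27.1 (20.6 to 35.0), 22.8 (16.9 to 30.1) and 19.0 (13.6 to 25.8). All 3 summits were in 3' untranslated regions, at nt 2557, 1234 and 3339. The 3 intervals overlap. Tmed10, the usual partner of Tmed2, had no listed summit. Arf6, which acts at the plasma membrane and endosomes, had a coding summit of 36.5 (28.9 to 45.6) at nt 1019, while the Golgi Arf genes Arf1 to Arf5 had none listed.

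Trappc6a, a subunit of the TRAPP complex that activates Rab1, had a coding summit of 17.1 (12.0 to 23.6) at nt 331 of ENSMUST00000002112 and a 3' untranslated summit of 7.59 (4.46 to 12.2) at nt 279 of ENSMUST00000135972. These positions are counted along different isoforms and were not mapped to each other, so whether the summits are 1 site is unknown.

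Rab genes had many summits but moderate folds. The 8 listed genes held 16 summits, and 6 of the 8 had 2 or more, against 20.1% of all listed genes. Their highest folds had a median of 15.0 and ran from 4.75 to 30.4. Most summits, 11 of 16 or 68.8%, lay in 3' untranslated regions, against 44.9% of all summits. Of the rest 4 were in coding sequence and 1 in a 5' untranslated region. No interval was taken for the 3' untranslated share. That of the coding share, 7.27% to 52.4%, includes the 48.0% of all summits.

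Rab32, which directs cargo to lysosome-related organelles, had the highest fold of these 8 genes (Rab5c, left out by the rule, reached 32.3), with 30.4 (23.5 to 38.7) at nt 1608 and had 13.8 (9.31 to 19.7) at nt 955, both in the 3' untranslated region. Rab21, an early endosome GTPase of integrin traffic, had coding summits of 27.1 (20.6 to 35.0) at nt 698 of ENSMUST00000020343 and 9.49 (5.90 to 14.6) at nt 438 of ENSMUST00000218831, and a 3' untranslated summit of 4.27 (2.11 to 7.96) at nt 4444 of the former transcript. The last of these rested on 8 fragments, the fewest of any member. The upper Rab32 and Rab21 summits overlap in their intervals and cannot be ordered.

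Rab7, the GTPase of late endosomes and lysosomes, had 18.0 (12.8 to 24.7) at nt 2082 in the 3' untranslated region and 11.4 (7.40 to 16.9) at nt 153 in the 5' untranslated region. Rab18, linked to lipid droplets and the endoplasmic reticulum, had 3 summits in the 3' untranslated region with folds of 17.6, 12.8 and 14.7, spread over 2 transcripts. Rab14, of Golgi and endosome traffic, had 12.3 at nt 2442 and 5.70 at nt 2952. All intervals within Rab7, within Rab18 and within Rab14 overlap.

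Rab1a, which serves transport from the endoplasmic reticulum to the Golgi, had 11.9 (7.77 to 17.4) at nt 1067 in the 3' untranslated region. Rab8b had a coding summit of 5.22 at nt 88 and a 3' untranslated summit of 4.75 at nt 2673. Rab44, a large atypical Rab, had a coding summit of 4.75 (2.43 to 8.58) at nt 1426. By the highest fold of a gene it ranked lowest of the listed Rab genes. Close relatives without a listed summit included Rab1b, Rab8a and Rab7b, and other well-known Rabs without one were Rab11a, Rab5a and Rab27a.

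**Figure D2:**
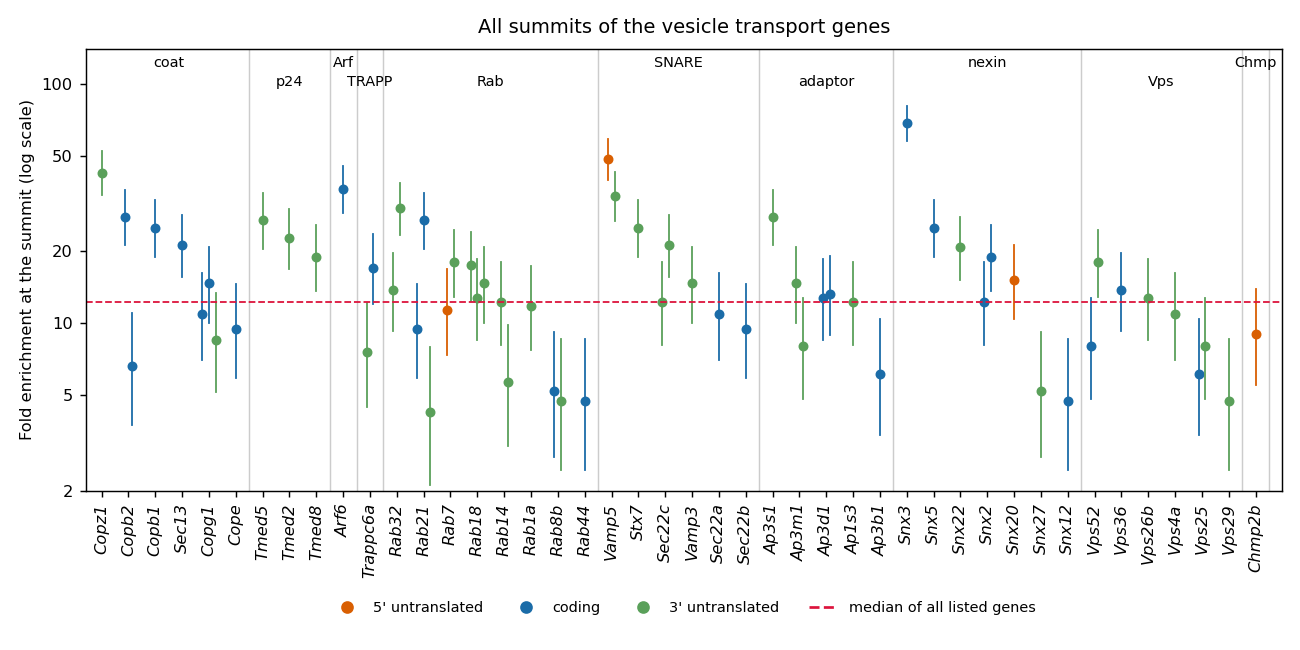
Fold enrichment at each of the 63 summits (log axis), by gene and family and coloured by region; vertical lines are 95% Poisson intervals of the fragment number and the dashed line is the median highest fold of all listed genes, 12.3. Snx3 at 68.8 and Vamp5 at 48.9 stand highest, and the Rab genes carry the most summits, 16.

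The SNARE genes matched by name spanned a wide range. Vamp5 had the second highest fold of all members, 48.9 (40.0 to 59.2), at nt 75 in the 5' untranslated region of ENSMUST00000074231, and a 3' untranslated summit of 34.2 (26.8 to 43.0) at nt 2215 of ENSMUST00000206154. The 2 summits overlap in their intervals. They lie at opposite ends of different transcripts. Vamp3, or cellubrevin, of recycling endosomes, had 14.7 (10.1 to 20.8) at nt 1892 in the 3' untranslated region. Vamp8, which acts in secretory granule and late endosome fusion, and Vamp1, Vamp2, Vamp4 and Vamp7 had none listed.

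Stx7, a syntaxin of late endosome fusion, was the listed one of 15 syntaxin genes, with 25.2 (18.9 to 32.8) at nt 2545 in the 3' untranslated region. Each of the 3 Sec22 genes had a summit. They were counted with the SNAREs by name alone, and whether each acts as a SNARE was not examined. Sec22c had 21.4 (15.7 to 28.5) at nt 4894 and 12.3 (8.15 to 18.0) at nt 4682 in its 3' untranslated region, 2 summits of 1 peak. Sec22a had 10.9 (7.02 to 16.3) at nt 116 and Sec22b, the SNARE of traffic between the endoplasmic reticulum and Golgi, 9.49 (5.90 to 14.6) at nt 740, both in coding sequence.

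Among adaptor genes the summits were concentrated on AP-3, the adaptor that sorts cargo to lysosomes and lysosome-related organelles such as granules. AP-3 had 4 of 7 genes (57.1%; 18.4% to 90.1%), AP-1 had 1 of 8 (12.5%; 0.316% to 52.7%), and the 3 AP-2 genes matched by the rule and the 4 AP-4 genes had 0. The intervals of AP-3 and AP-1 overlap, and the upper limits for AP-2 and AP-4, 70.8% and 60.2%, lie within that of AP-3. The listed AP-3 genes were 1 of each kind of chain: Ap3d1 (delta), Ap3b1 (beta), Ap3m1 (mu) and Ap3s1 (sigma). Their second copies Ap3b2 and Ap3m2, which belong to the neuronal form, and Ap3s2 had none listed.

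Ap3s1 had the tallest adaptor summit, with 28.0 (21.4 to 36.1) at nt 1042 in the 3' untranslated region, and its letter d means a peak of at least 4 summits. Ap3m1 had 14.7 (10.1 to 20.8) at nt 3210 and 8.07 (4.82 to 12.8) at nt 6459, both 3' untranslated. Ap3d1, the gene mutated in mocha mice, had coding summits of 12.8 at nt 2477 and 13.3 at nt 3038. Ap3b1, mutated in pearl mice, had the lowest adaptor fold, 6.17 (3.42 to 10.4) at nt 2259 of coding sequence.

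Ap1s3 was the listed AP-1 gene, with 12.3 (8.15 to 18.0) at nt 2370 in the 3' untranslated region. The gene table holds 1 pseudogene named for Ap3m1, 2 named for Ap3s1 and, among the other members, 1 named for Rab7, and reads shared with such copies could be assigned to either. By its positions, 9 members overlap another protein-coding gene: Ap3m1, Ap3s1, Snx12, Snx22, Tmed8, Vamp3, Vps26b, Vps29 and Vps36. The alpha subunit genes Ap2a1 and Ap2a2, which the rule does not match, had no listed summit.

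Sorting nexins held the tallest member summit. Snx3, which works with retromer to recycle receptors from endosomes (ENSMUSG00000019804), had a fold of 68.8 (58.1 to 80.9) on 144 fragments, at nt 490 in the coding sequence of ENSMUST00000019939. It ranked 27 among the 1485 listed genes. Its interval overlaps that of Vamp5 only at the edge and lies above those of all other members. Snx12, its close paralogue, had 4.75 (2.43 to 8.58) at nt 499, also in coding sequence, and ranked 1333.

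Snx5 and Snx2 encode nexins with a membrane-bending BAR domain. Snx5 had 25.2 (18.9 to 32.8) at nt 1146, and Snx2 had 12.3 (8.15 to 18.0) at nt 126 and 19.0 (13.6 to 25.8) at nt 323, all in coding sequence. Their relatives Snx1, Snx6 and Snx32 had none listed. Snx27, which links retromer to cargo through a PDZ domain, had 5.22 (2.75 to 9.20) at nt 4826 in the 3' untranslated region.

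Snx20, a nexin that binds the leukocyte adhesion protein PSGL-1, had 15.2 (10.5 to 21.4) at nt 82 in the 5' untranslated region. Snx22 had 20.9 (15.2 to 28.0) at nt 2130 in the 3' untranslated region. In the gene table Snx22 overlaps Ppib, which encodes cyclophilin B and had no listed summit; the sources used here do not state whether reads were assigned by strand. Over the nexins 5 of 8 summits (62.5%; 24.5% to 91.5%) were coding, against 48.0% of all summits, which that interval includes.

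The Vps genes serve retromer, tethering and ESCRT complexes. Their highest folds had a median of 11.9 and ran from 4.75 to 18.0. The interval of that median spans this full range and includes the median of all listed genes, 12.3. The upper quartile of all listed genes, 21.4, was reached by 0 of the 6, against 25.1% of all listed genes. No interval was taken for that share. For retromer, Vps26b had 12.8 (8.54 to 18.6) at nt 2970 and Vps29 had 4.75 (2.43 to 8.58) at nt 1617, both 3' untranslated, while the core subunit gene Vps35 and the paralogue Vps26a had none listed. For ESCRT-II, Vps36 had a coding summit of 13.8 (9.31 to 19.7) at nt 468, and Vps25 had a coding summit of 6.17 at nt 79 and a 3' untranslated one of 8.07 at nt 1017. The intervals of these ESCRT-II summits overlap.

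Vps4a, the ATPase gene that takes ESCRT-III apart, had 10.9 (7.02 to 16.3) at nt 1796 in the 3' untranslated region, and its paralogue Vps4b had none listed. Chmp2b was the listed ESCRT-III gene, with 9.02 (5.54 to 14.0) at nt 149 in the 5' untranslated region. Vps52, a subunit of the GARP and EARP tethers, had 18.0 (12.8 to 24.7) in the 3' untranslated region at nt 3284 of ENSMUST00000025178 and a coding summit of 8.07 (4.82 to 12.8) at nt 1370 of ENSMUST00000173196. The 8 genes grouped by name as HOPS and CORVET, tethers of late and early endosomes, had 0 listed. This group includes Vps33b, whose place in these complexes was not checked. Its Clopper-Pearson upper limit, 36.9%, lies above the 6.71% of all protein-coding genes, so the share is not apart from the background.

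The highest folds of the 44 genes had a median of 16.1 (order-statistic 95% interval 12.8 to 20.9; quartiles 10.9 and 25.2). Over all 1485 listed genes the median was 12.3 (quartiles 7.12 and 21.4). Medians were 23.3 for the coats, 19.0 for the nexins, 18.0 for the SNAREs, 15.0 for the Rab genes and 13.3 for the adaptors, with intervals that all overlap and that span the full range of each family. The families can therefore not be ordered by fold.

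Of the members, 29 lay above the median of all listed genes. At or above the upper quartile of all listed genes were 15, or 34.1%, against 25.1% of all listed genes. No interval was taken for this share, and Sec13 and Sec22c lay exactly on the quartile, 21.4. The 15 were Snx3, Vamp5, Copz1, Arf6, Rab32, Copb2, Ap3s1, Rab21, Tmed5, Copb1, Snx5, Stx7, Tmed2, Sec13 and Sec22c. They came from 7 families, among which the coats gave 4 and the SNAREs, with Sec22c counted by name, 3. The partner genes with a summit, which include SNARE genes that the naming rule does not match, had a lower median, 6.65 over 27 genes.

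**Figure D3:**
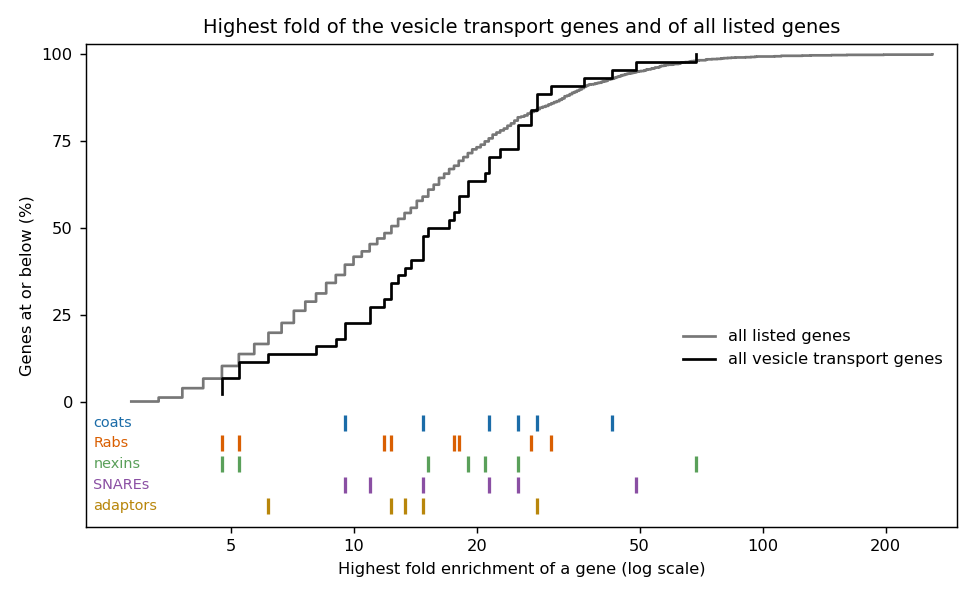
Cumulative share of genes, in percent, by their highest fold (log axis), for all 1485 listed genes (grey) and the 44 vesicle transport genes (black); ticks below mark single genes of the 5 main families. The black curve lies to the right of the grey one around the middle, with medians of 16.1 and 12.3, and the curves meet near the top.

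The partner genes show which neighbouring steps were listed. Tethers had 7 of 36 genes (19.4%), led by the Golgi tether subunit genes Cog7 at 29.4 and Cog5 at 16.1 and by the exocyst gene Exoc4 at 23.7. SNARE partners had 4 of 24, led by Nsf, the ATPase that separates spent SNARE complexes, at 18.5. Next were Bet1 at 8.07 and Snap23 at 5.70, themselves SNARE genes whose names the rule does not match. ESCRT partners and retromer cargo had 5 of 32, with Mvb12a at 22.3, Tsg101 at 8.54 and Pdcd6ip at 5.22.

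Clathrin and endocytosis genes had 5 of 34, all with low folds: Cltc, the clathrin heavy chain gene, at 6.65, the dynamin gene Dnm2 at 5.70 and Epn1 at 4.27 were the highest. COPI and COPII partners had 3 of 28, with the KDEL receptor gene Kdelr2 at 35.1 and the cargo receptor genes Mcfd2 at 16.1 and Lman1 at 5.70. Rab regulators had 3 of 34, with Rabac1 at 36.1, Rabgef1, which activates Rab5, at 11.4, and Tbc1d15 at 6.17. Intervals were 4.95% to 31.1% for clathrin and endocytosis, 2.27% to 28.2% for COPI and COPII partners and 1.86% to 23.7% for Rab regulators. Those of SNARE partners (4.74% to 37.4%) and of ESCRT partners and retromer cargo (5.28% to 32.8%) were also wide. All of these include the 6.71% of all protein-coding genes, and that of the tethers, 8.19% to 36.0%, does not.

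Over all members, 33 of 63 summits (52.4%; 39.4% to 65.1%) lay in 3' untranslated regions, 26 (41.3%; 29.0% to 54.4%) in coding sequence and 4 (6.35%; 1.76% to 15.5%) in 5' untranslated regions. The shares of all summits, 44.9%, 48.0% and 7.09%, lie within these intervals, so the members as a whole were not apart from the list. By gene, 19 had 3' untranslated summits alone, 15 coding summits alone and 2 (Snx20 and Chmp2b) a 5' untranslated summit alone; 6 had coding and 3' untranslated summits, and Rab7 and Vamp5 had summits in both untranslated regions. The coding share was 25.0% (7.27% to 52.4%) in Rab genes and 77.8% (40.0% to 97.2%) in coats, and these intervals overlap. The lengths of the regions were not measured, and their part in these shares was not tested.

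**Figure D4:**
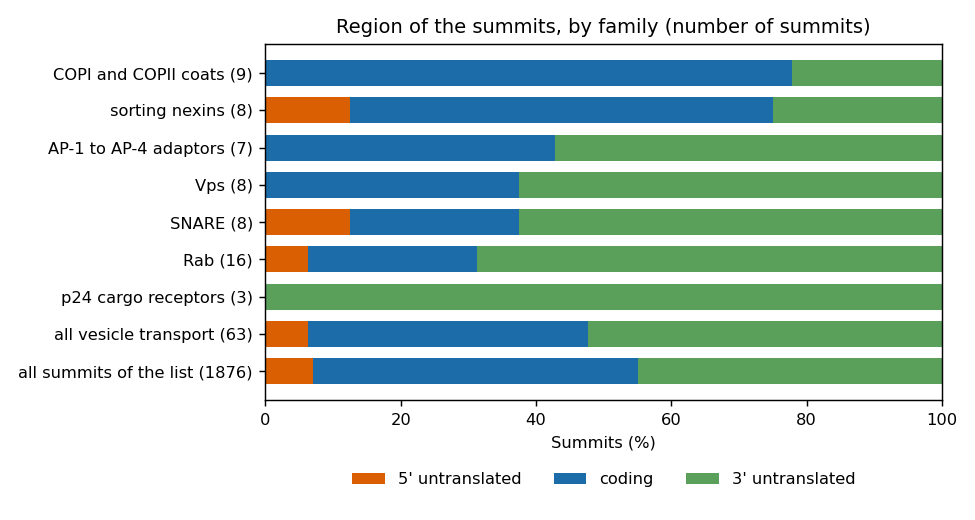
Share of summits, in percent, in the 5' untranslated, coding and 3' untranslated region for the families with 3 or more summits, for all 63 member summits and for all 1876 summits; the number of summits is in parentheses. Coats have the largest coding share, 77.8%, and all 3 summits of the Tmed genes, labelled as p24 cargo receptors, are 3' untranslated.

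Summits were also compared within a listed transcript; shorter isoforms that hold only 1 of the summits were not checked. There were 15 pairs on 13 member transcripts, with a median distance of 938 nt and a median ratio of higher to lower fold of 1.58. Over all 179 pairs in the list the median ratio was 1.42. In 3 of the 15 member pairs (20.0%) the counting intervals did not overlap, against 19.6% of all pairs, so unequal pairs were as common as in the whole list.

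The 3 pairs were those of Rab21, with a coding fold of 27.1 and a 3' untranslated fold of 4.27 that lay 3746 nt downstream (ratio 6.33), of Copb2, with 28.0 and 6.65 over 1326 nt of coding sequence (ratio 4.21), and of Rab32, with 13.8 and 30.4 over 653 nt of the 3' untranslated region (ratio 2.21). The taller summit was upstream in Rab21 and Copb2 and downstream in Rab32. Across the member pairs the upstream summit was the taller in 7 of 15.

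**Figure D5:**
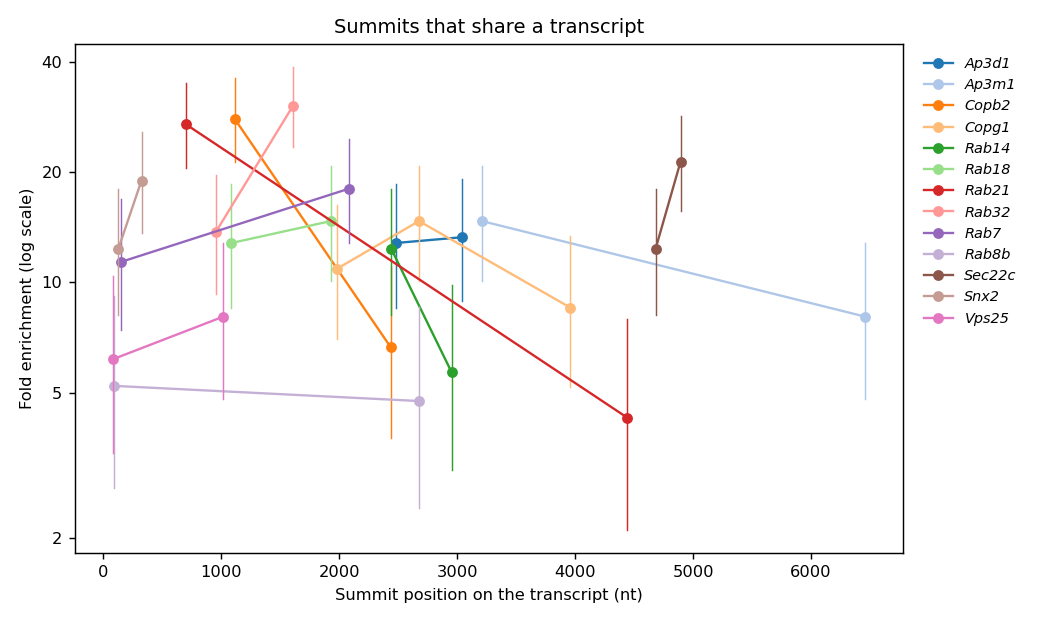
Fold enrichment (log axis) against summit position in nt for the 13 transcripts with more than 1 member summit; lines join summits of 1 transcript and vertical bars are 95% Poisson intervals. Rab21 and Copb2 drop along the transcript (ratios 6.33 and 4.21), Rab32 climbs (ratio 2.21), and the intervals of the other transcripts overlap.

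Several member summits come from peaks that were listed in part. Of the 63 summits 20, or 31.7%, carry a letter that marks a peak with several summits, against 26.5% of all summits; their 18 peaks imply at least 44 summits. The peak numbers follow the order of transcript and position at all 1875 steps of the list. Between neighbouring listed peaks on 1 member transcript, 6 of 12 gaps skipped numbers, 9 in all, for example 1 between the peaks of Rab7 and 2 between those of Ap3m1. These numbered peaks thus lay on the same transcripts and are not among those analysed here. In all, 16 members had 2 or more listed summits (36.4%, against 20.1% of all listed genes) and 3 had 3, namely Copg1, Rab18 and Rab21. Of the 16, 5 had them on more than 1 transcript (Rab18, Rab21, Trappc6a, Vamp5 and Vps52), so the number of separate sites in these genes is uncertain.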

How the data were processed

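RNA pulled down with an ac4C antibody from 32D cells was sequenced by the authors. The submitters' processing notes name cutadapt, Bowtie2, MACS2 and build GRCm39, with no versions or parameters; the filter behind the list is not stated in the sources used here. Per the file headers, each summit in the deposited list has a fold enrichment ratio, a −log10 p-value and a −log10 q-value; entry names read as a call on merged ac4C libraries.

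Members were taken by symbol and counted against the protein-coding genes of a RefSeq table (GRCm38.p6; 1475 of 1485 names matched). The families, partner lists, marker lists and members were chosen with earlier results of these data known. No test was run; intervals are exact Clopper-Pearson, Poisson or order-statistic (95%), checked on simulated data. Every listed member is named; those at or above the upper quartile, with 2 or more summits, or highest or lowest in a family are given in full, and of each partner list the 3 highest. Of the partner names 2 were missing from the table. No value column was left unmapped. Alternatives were stricter folds, coding summits alone, core members, mean folds, strongest summits and all genes as background. Python 3.11.15, pandas 2.3.3 and scipy 1.17.1 were used.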

Additional observations from a re-analysis of the deposited data

How the results depend on the processing

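No paired analysis was possible because the list holds 1 pooled value per summit, so leaving out a replicate or using the replicate number as a block gave no value. Of 56 alternative values, 43 stayed within 1.5 times the reported share or within the interval of the reported value. The intervals of small families are wide: with coding summits the median fold was 5.22 for 3 Rab genes and 10.2 for 2 SNAREs, and under the stricter fold threshold the coding share of Rab summits was 10.0%, each inside its interval but over 1.5 times below the reported value. With coding summits alone, by construction fewer summits, the listed share was 8.17% for all members, 4.41% for Rab genes, 13.3% for nexins, 7.69% for SNAREs and 9.09% for adaptors, against 3.45% of protein-coding genes. With folds at or above the median of all summits, the background share was 3.65%, and the members kept 12.5%; the coding share was 0% of 6 SNARE summits and 44.2% of all summits. The background was 2.95% over all genes of the table. The median fold of all listed genes was 11.6 with mean folds, 10.9 with coding summits and 19.9 with the stricter folds. The members' medians under these settings were 13.7, 13.8 and 19.9. The members' median, 16.1, is thus above that of all listed genes in the full list and equal to it in the stricter one. Depth is unknown, and counts of 8 to 144 fragments limit the order of members.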
